A study of Arabidopsis thaliana with 8 samples.

Results

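The transcripts described here are those of 3 enzymes of the glyoxylate cycle and of gluconeogenesis, 3 of the 22746 probe sets (groups of probes for a transcript) that the array holds beside its controls. They are ICL (AT3G21720), which encodes isocitrate lyase, MLS (AT5G03860), which encodes malate synthase, and PCK1 (AT4G37870), which encodes phosphoenolpyruvate carboxykinase. The members were chosen on measured values: ICL for the large gap between the arrays numbered 1 and 2 in shoots, and the other 2 as its partners in the pathway, with the gap in view. The gap is therefore described and not tested. With the symbol before the probe set's own name they are ICL.257947_at, MLS.250868_at and PCK1.253041_at. The probe table names ICL, whereas the names of the probe sets of MLS and PCK1 come from the rule that chose them.

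Isocitrate lyase splits isocitrate into succinate and glyoxylate, and malate synthase joins glyoxylate to acetyl-CoA to give malate, so that carbon skips the steps of the citric acid cycle that release carbon dioxide. Phosphoenolpyruvate carboxykinase then turns oxaloacetate into phosphoenolpyruvate, the entry to sugar synthesis. In oilseed seedlings such as those of Arabidopsis this route is known for turning stored oil into sugar after germination, and transcripts of isocitrate lyase and malate synthase are also known from starved and senescing leaves.

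The arrays came from wild-type Arabidopsis thaliana Col-0, a laboratory accession, aged 10 days. Seedlings grew in shaken liquid culture under continuous light, many to a beaker with their shoots above the medium, and were given 250 µM potassium nitrate or 250 µM KCl for 20 min before roots and shoots were taken. The 4 groups were roots in nitrate, roots in KCl, shoots in nitrate and shoots in KCl, with 2 samples each, numbered 1 and 2 in the labels, and 1 ATH1 array per sample. What the number stands for is not stated in the labels, nor is it stated that paired samples grew in different beakers. A p-value here thus reflects the scatter of these samples alone, and that scatter may be technical.

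Median signals were 42.3 to 49.9 on the 8 arrays, and their small number limits the precision. Roots and shoots were checked against the organ markers that the probe table names. Summed over RCA and PRK, the 2 of 12 green tissue markers with a name, signals were 148 to 215 in roots and 3690.4 to 5722 in shoots. Of 10 root markers 3 are named. The root hair genes EXPA7 and EXPA18 had signals of 121 to 176 and 237 to 284 in roots, against 3.59 to 25.4 and 2.07 to 35.1 in shoots. PYK10, a beta-glucosidase gene of roots, had signals of 3083 to 3727 in roots and of 2220 to 3214 in shoots. It was not called between organs (limma, adjusted p = 0.256 after nitrate and 0.304 in KCl). In shoots the arrays numbered 2 had fewer green marker signals than those numbered 1, with sums of 4457 (number 1) and 3899 (number 2) in nitrate and 5722 and 3690.4 in KCl. The part of this difference in the results below was not tested.

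ICL was bright on the shoot arrays numbered 1 and dim on those numbered 2. In nitrate roots its signals were 237 (number 1) and 83.8 (number 2), against 462 (number 1) and 59.9 (number 2) in KCl roots. In nitrate shoots they were 2572 and 111, against 3049 and 63.2 in KCl shoots. In every group the array numbered 1 was the brighter, and the nitrate and KCl arrays overlapped in both organs. The ratio of number 1 to number 2 was 2.82 in nitrate roots and 7.71 in KCl roots, and 23.1 in nitrate shoots and 48.2 in KCl shoots. From the lowest, the group means were 160.3 ± 108 in nitrate roots, 261 ± 285 in KCl roots, 1341 ± 1739.6 in nitrate shoots and 1556 ± 2111 in KCl shoots (SD, n = 2 each), and all neighbours in that order lay within their spread. On the arrays numbered 2 the organs lay close together, with 59.9 in KCl roots and 63.2 in KCl shoots. In such bulk samples fewer cells that express a gene and less RNA per cell cannot be told apart.

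MLS had a gap of the same direction in shoots and was dim in roots. Its signals were 5.24 (number 1) and 10.8 (number 2) in nitrate roots, against 1.34 and 9.52 in KCl roots. In nitrate shoots they were 441 and 108, against 325 and 62.7 in KCl shoots. All 4 root values lay below 33.3, the signal under which a probe set's mean over the 8 arrays kept it from being tested. Every shoot array was brighter than every root array, also the shoot arrays numbered 2. The ratio of number 1 to number 2 was 4.08 in nitrate shoots and 5.18 in KCl shoots, smaller than that of ICL on the same arrays. No detection calls were used, so whether MLS was above background in roots is not given here.

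PCK1 was bright on every array, and its gap in shoots was the smallest of the 3. In nitrate roots its signals were 891 (number 1) and 701 (number 2), against 1018 and 611 in KCl roots. In nitrate shoots they were 2184 and 1565, against 2891 and 1508 in KCl shoots. The array numbered 1 was again the brighter in each group, by 1.27 times in nitrate roots, 1.66 times in KCl roots, 1.40 times in nitrate shoots and 1.92 times in KCl shoots. Every shoot array exceeded every root array. By group mean the order from the lowest was nitrate roots at 796 ± 134, KCl roots at 814 ± 287, nitrate shoots at 1874 ± 438 and KCl shoots at 2199.7 ± 978 (SD, n = 2 each). Neighbours of the same organ in that order differed by less than their spread.

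**Figure D1:**
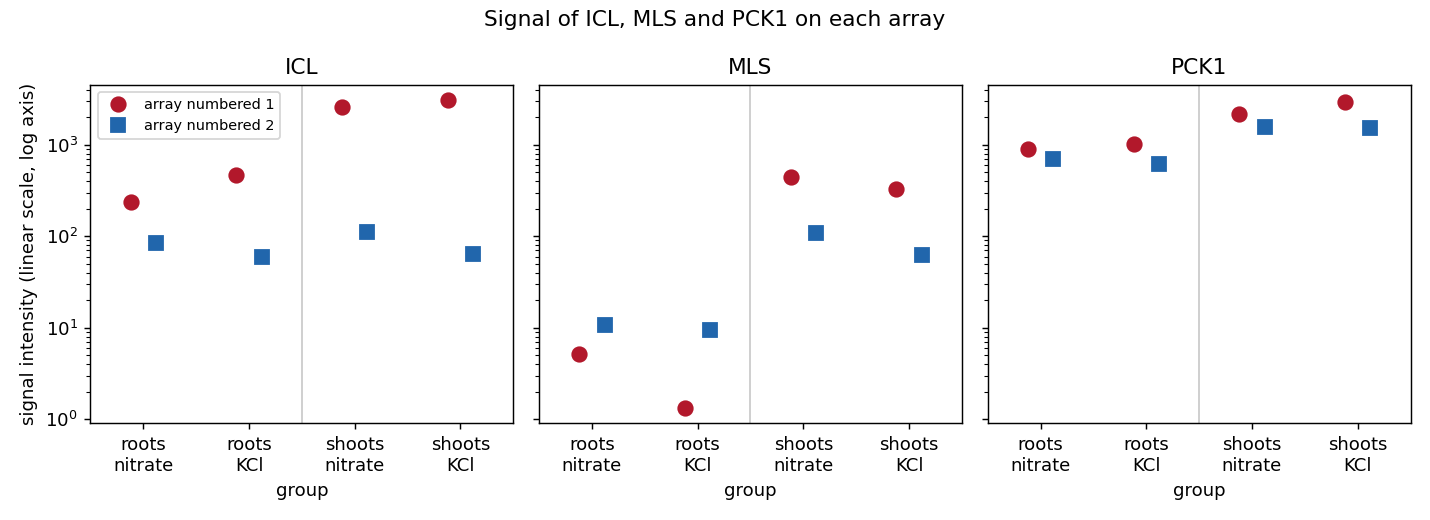
Signal intensity (log axis) of ICL, MLS and PCK1 on each of the 8 arrays, by organ and treatment, with circles for arrays numbered 1 and squares for arrays numbered 2. ICL lies between 59.9 and 111 on all arrays numbered 2, MLS is at 10.8 or less in roots, and PCK1 stays between 611 and 2891.

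Set against all 13647 tested probe sets, the gaps of the members differed in rank. A gap is the value of the array numbered 1 minus that of number 2, on the log2(signal + 16) scale, which understates differences of dim transcripts. In roots ICL had gaps of 1.34 in nitrate and 2.66 in KCl and ranked 3 by the smaller value. PCK1 had root gaps of 0.34 and 0.72 and ranked 400. MLS had -0.34 and -0.56, between values that were all low. The middle 95% of all probe sets lay between -0.57 and 0.57 in nitrate roots and between -0.62 and 0.54 in KCl roots. ICL was the 1 member of the 3 that was at least 2-fold higher on number 1 in both root pairs, as were 0.0513% of tested probe sets.

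In shoots ICL had gaps of 4.34 in nitrate and 5.27 in KCl, and by the smaller of these it ranked number 1 of all tested probe sets. MLS had 1.88 and 2.11 and ranked 13, and PCK1 had 0.48 and 0.93 and ranked 776. The middle 95% lay between -0.93 and 0.89 in nitrate shoots and between -1.06 and 0.93 in KCl shoots. ICL and MLS, 2 of the 3 members, were at least 2-fold higher on number 1 in both shoot pairs, as were 0.879% of tested probe sets. ICL and PCK1 were higher on number 1 in all 4 groups, which held for 15.5% of tested probe sets. Since the members were chosen by these gaps, nothing is read from these shares. Under quantile normalization the mean shoot gap of PCK1 was 0.32, against 0.70 as scaled by the authors, while that of ICL was 4.64 against 4.81.

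**Figure D2:**
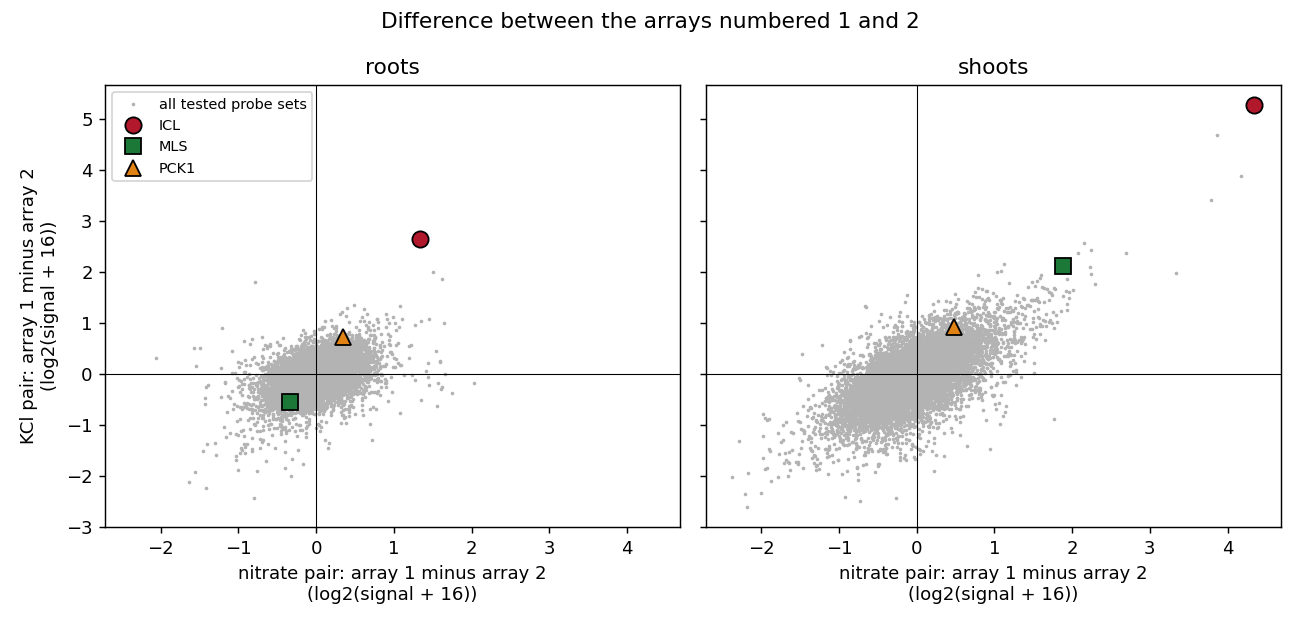
Gap between the arrays numbered 1 and 2 (log2(signal + 16)) in the nitrate pair (x axis) and the KCl pair (y axis), for roots (left) and shoots (right); each grey point is a tested probe set and the large symbols are ICL, MLS and PCK1. In shoots ICL lies at 4.34 and 5.27, beyond the other points, and MLS at 1.88 and 2.11. PCK1 lies at 0.48 and 0.93, within the cloud.

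Nitrate against KCl asked whether the members respond to the anion within 20 min, which is a contrast other than the one they were chosen by. Of the 3 members 0 passed in roots and 0 in shoots, where 1.14% and 0.0953% of tested probe sets passed (limma, adjusted p under the threshold), and all adjusted p were 1. At an unadjusted p under 0.05 none of the 3 passed either, where 769 of the 13647 tested probe sets passed in roots and 323 in shoots, and limma was the tool used for every fit. The background is so low that a count of 0 among 3 members is near it.

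The precision differed widely among the members. PCK1 had a log2 difference of 0.0015 ± 0.35 in roots and of -0.17 ± 0.35 in shoots (SE, 2 arrays a group), with 95% intervals of -0.80 to 0.81 and -0.98 to 0.63. For MLS the differences were 0.18 ± 0.73 in roots, where it was dim, and 0.54 ± 0.73 in shoots, with an interval of -1.13 to 2.21 in shoots. ICL had -0.26 ± 1.83 in roots and 0.22 ± 1.83 in shoots, and its intervals of -4.45 to 3.93 and -3.97 to 4.41 do not bound the response within several fold. That SE pools the gaps between numbers over both organs, and ICL was chosen for its gap in shoots. With each organ fitted alone the SE was 0.78 in roots and 1.93 in shoots. With a term for the number within each organ it was 0.28 in both. ICL was not called in these fits either. These misses do not show that the transcripts were unaffected by nitrate.

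Within arrays of the same number the direction often depended on that number. In roots ICL was 0.512 times as bright with nitrate as with KCl on number 1 and 1.40 times on number 2, and in shoots 0.843 times and 1.76 times. PCK1 followed the same order, with 0.875 and 1.15 times in roots and 0.755 and 1.04 times in shoots. MLS was the exception, brighter with nitrate on both numbers in shoots, by 1.36 times on number 1 and 1.73 times on number 2. Leaving out single arrays changed the sign of the difference for all 3 members, and none was called.

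**Figure D3:**
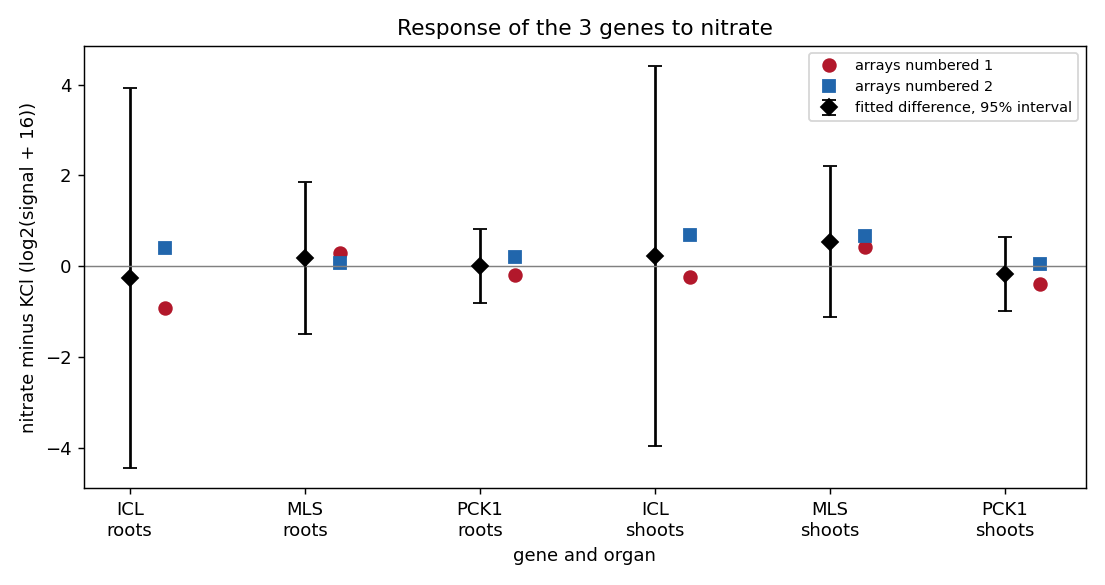
Nitrate minus KCl on the log2(signal + 16) scale for each gene in roots and shoots; diamonds with bars are the fitted difference with its 95% interval, circles the difference between arrays numbered 1 and squares that between arrays numbered 2. All 6 intervals span 0, from -0.80 to 0.81 for PCK1 in roots up to -3.97 to 4.41 for ICL in shoots, and the circles and squares of ICL and PCK1 lie on opposite sides of 0.

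The response in roots minus that in shoots asked whether the organs react differently. It was -0.48 ± 2.59 for ICL, -0.36 ± 1.03 for MLS and 0.18 ± 0.50 for PCK1 on the log2 scale (SE). None of the 3 passed (limma, adjusted p = 1 for each, and none at an unadjusted p under 0.05), where 0.0147% of tested probe sets passed as adjusted and 355 of 13647 unadjusted.

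Roots against shoots gave the clearest differences of the members. MLS and PCK1 were lower in roots under both treatments, and ICL was not called under either. In KCl 37.8% of tested probe sets were called and 19.2% were lower in roots, and after nitrate 38.2% and 19.6%, so 2 of 3 members is a share to be read against a common outcome. With nitrate MLS averaged 8.04 ± 3.97 in roots and 275 ± 235 in shoots, and with KCl 5.43 ± 5.79 in roots and 194 ± 185 in shoots (SD, n = 2 each). Its log2 difference was -3.32 ± 0.73 after nitrate (SE; limma, adjusted p = 0.00685) and -2.96 ± 0.73 in KCl (adjusted p = 0.0122). MLS passed the filter on low signals through its shoot arrays alone, a choice that favours such a difference. Its p-values between organs are therefore not used as support, and its signals describe the difference. The size of the MLS difference depended on the pseudocount. It ran from -4.86 at 1 to -1.68 at 64 in KCl and from -4.68 to -2.04 after nitrate.

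PCK1 had a log2 difference of -1.21 ± 0.35 after nitrate (SE; limma, adjusted p = 0.0253) and of -1.39 ± 0.35 in KCl (adjusted p = 0.0139). Its ratio of roots to shoots was close on the arrays of either number, at 0.408 (number 1) and 0.448 (number 2) after nitrate and 0.352 and 0.405 in KCl. For ICL that ratio was far from equal between numbers: it was 0.0921 on number 1 and 0.753 on number 2 after nitrate, and 0.152 and 0.948 in KCl. The fit over both numbers gave ICL a difference of -1.85 ± 1.83 after nitrate (adjusted p = 0.479) and of -1.37 ± 1.83 in KCl (adjusted p = 0.601).

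Some of these calls were lost when 1 array was left out, which also widens the error. In KCl MLS was not called without the first root array (-2.68, adjusted p = 0.0786) or the first shoot array (-1.90, adjusted p = 0.0594). PCK1 in KCl was not called without the second root array (-1.03, adjusted p = 0.111) or the first shoot array (-0.92, adjusted p = 0.0671). After nitrate PCK1 was not called without the first root array (-1.38, adjusted p = 0.0642), the second root array (-1.04, adjusted p = 0.15) or the first shoot array (-0.97, adjusted p = 0.123). The SE of these 3 fits was 0.46, 0.46 and 0.42, against 0.35 with all arrays. After nitrate the PCK1 difference was larger without the first root array than with all arrays (-1.38 against -1.21). It was smaller without the second root array (-1.04) or the first shoot array (-0.97). Whether these latter losses came from the size of the difference or from the error was not tested.

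The wider pathway could be followed in part. Of 21 genes of the glyoxylate cycle and of gluconeogenesis, 2 beside the members are named and tested. PPDK, which encodes pyruvate orthophosphate dikinase, another enzyme that makes phosphoenolpyruvate, had signals of 4.84 to 21.2 in roots. In shoots they were 503 (number 1) and 349 (number 2) in nitrate, against 638 and 409 in KCl. Like MLS it was tested through its shoot arrays alone, with all root signals below 33.3, so its organ difference is given by these signals only. In shoots PPDK was brighter on number 1, with gaps of 0.51 in nitrate and 0.62 in KCl, inside the middle 95% of all tested probe sets. SDH1-1, a subunit of succinate dehydrogenase that takes up the succinate made by isocitrate lyase, was higher in roots, with log2 differences of 0.69 ± 0.16 after nitrate and 0.58 ± 0.16 in KCl (adjusted p = 0.00822 and 0.0196). The gaps of SDH1-1 lay between -0.19 and 0.22 in all groups.

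Of the enzymes that feed the cycle from stored oil, SDP1 and AIM1 are named and tested. SDP1, the lipase that starts the breakdown of seed oil, had signals of 74.8 to 86.8 in roots and 85.9 to 101 in shoots. Its shoot gaps were 0.03 in nitrate and -0.20 in KCl. AIM1, an enzyme of fatty acid beta-oxidation, had shoot gaps of -0.07 in nitrate and -0.19 in KCl. It was lower in roots, with a log2 difference of -0.65 ± 0.15 under either treatment (SE; limma, adjusted p = 0.00919 after nitrate and 0.0095 in KCl), and SDP1 was not called. These are 2 tested genes of a list of 21. Of the 4 tested genes of both lists beside the members, 0 were called for nitrate in roots or in shoots by limma, where 155 and 13 of the 13647 tested probe sets were, and 0 passed at an unadjusted p under 0.05, where 769 and 323 did. A count of 0 of 4 is near that background.

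HPR1, which encodes hydroxypyruvate reductase of photorespiration, the other pathway that handles glyoxylate in peroxisomes of green tissue, had signals of 32.2 to 50.2 in roots. In nitrate shoots it had 1428 (number 1) and 1088 (number 2), against 1625 and 863 in KCl shoots. It was brighter on number 1 in shoots, with gaps of 0.39 in nitrate and 0.90 in KCl, inside the middle 95% of all tested probe sets. Among sugar starvation genes, IVD, an enzyme of leucine breakdown, had shoot gaps of 0.29 and 0.60, and MCCA, another such enzyme, of -0.21 and -0.20. In shoots the gap of ICL was larger than that of every other tested gene of the 7 lists. ICL was chosen for that gap, so nothing is read from this order.

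Seed and embryo markers were measured in part. Of 22 such genes the probe table names 2, the oleosins OLEO3 and AT3G01570, which coat oil bodies, and neither passed the filter. Their summed signal was 28.7 and 23.7 in nitrate roots, against 24.9 and 22.4 in KCl roots. In shoots it was 66.8 (number 1) and 41.2 (number 2) in nitrate, against 77.9 and 29.6 in KCl. The sum was thus higher on number 1 in both shoot pairs, as was the sum of the green tissue markers. The summed oil breakdown genes were lower on number 1 there (599 against 630 in nitrate, 577 against 665 in KCl). Single oleosin signals were 1.72 to 49.7 over both organs, and none of the 16 values was 0. The part of the oleosins in the gap of ICL was not tested.

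**Figure D4:**
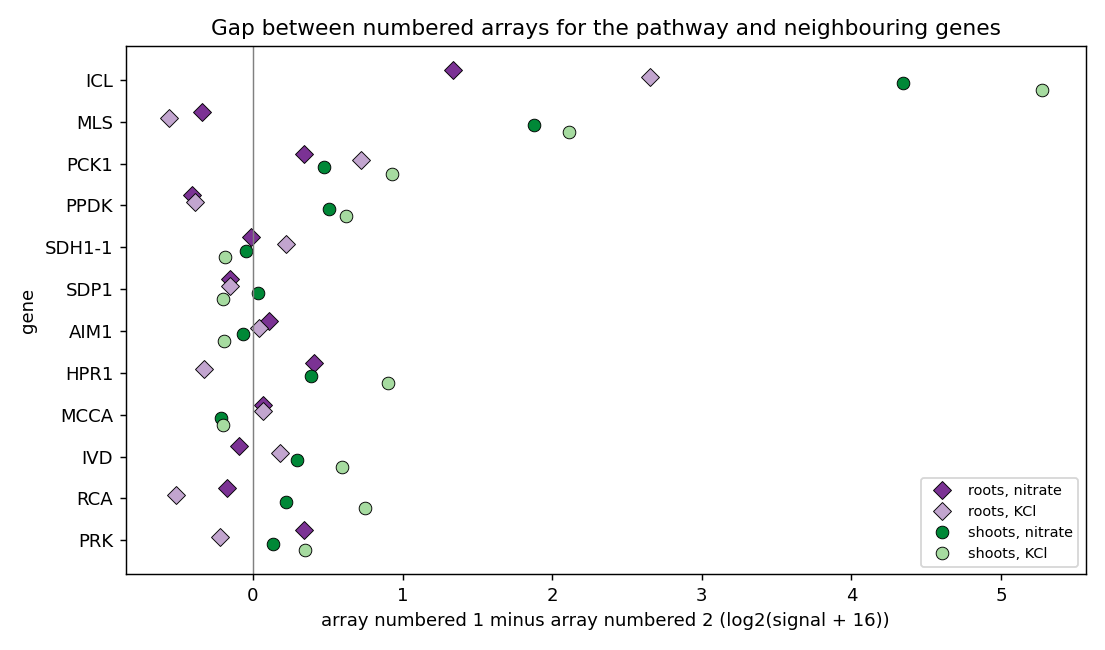
Gap between the arrays numbered 1 and 2 (x axis, log2(signal + 16)) for the 12 tested genes of the glyoxylate, oil breakdown, photorespiration, sugar starvation and green tissue lists (y axis), by group; diamonds are roots and circles shoots. ICL reaches 5.27 and MLS 2.11 in shoots, and the shoot gaps of the other genes lie between -0.21 and 0.93.

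Profiles most like those of the members were sought over the 8 arrays among 7254 named probe sets, as the mean absolute difference between log2 values after each profile was centred on its own mean. For ICL the closest was AT1G47400, at 0.76 per array. Its signals were 22.6 to 39.1 in roots, and in shoots 433 (number 1) and 16.6 (number 2) in nitrate, against 315 and 15.1 in KCl. Next came AT5G05250 (0.97), STZ, a zinc finger transcription factor gene known from stress responses, AT3G56360 (1.13) and AT4G10270 (1.13). MLS ranked 16 in likeness to ICL, at 1.31, and PCK1 ranked 31, at 1.39.

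For MLS the closest profiles were AT5G48490 (0.32), DFR (0.38), an enzyme gene of anthocyanin synthesis, AT2G39400 (0.39), AT1G72940 (0.41) and AT3G04210 (0.42). AT5G48490 had 14.1 to 19.1 in roots, with 718 and 251 in nitrate shoots, against 603 and 231 in KCl shoots. ICL came only at rank 1342 by likeness to MLS. For PCK1 the closest were AT4G16190 (0.10), AT5G53940 (0.12), AT4G28740 (0.14), AT1G28150 (0.15) and AT1G36320 (0.15). AT4G16190 had 955 to 1329.8 in roots, with 3079.8 and 1960.4 in nitrate shoots, against 3963 and 2132 in KCl shoots. The 3 members were not each other's nearest profiles, but they were chosen with their gaps on these same arrays in view. Nothing is read from these ranks. The points of each profile share 8 arrays and their scaling, and the likeness is a description.

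Among probe sets of 1 named gene, the largest gaps in shoots toward number 1 after ICL were those of AT3G29970 (3.88 in the smaller pair), AT4G39675 (3.86), AT1G47400 (3.41) and psbA (2.37), the plastid gene of the D1 protein of photosystem II. AT3G29970 and AT4G39675 were also brighter on number 1 in roots. AT3G29970 had 424 and 139.6 in nitrate roots, against 1063 and 254 in KCl roots, and AT4G39675 had 398 and 118 in nitrate roots, against 899 and 234 in KCl roots. Toward number 2 the largest were AT2G04050 (-2.21), the plastid genes rbcL, atpF (-1.88) and rpl14 (-1.87), and AT2G16660 (-1.68). The gene of the large subunit of Rubisco, rbcL, had 85.4 (number 1) and 389.9 (number 2) in nitrate shoots, against 91.2 and 523 in KCl shoots. None of these 5 gaps toward number 2 matched that of ICL in size. ICL was chosen for its gap, so nothing is read from that comparison.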

How the data were processed

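RNA from 8 samples was measured on ATH1 arrays with a biotin label. The deposited table gives 1 signal intensity per probe set and array, made by the authors with MAS5 and GCOS, per the submitters' processing notes. The sources used here give no scaling target, version or filter. Each array has the same trimmed mean, 100.01 after 2% of values were dropped at either end, and the authors' scaling was kept.

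Of 22810 probe sets 64 controls were left out. Those with a mean signal above the 40th percentile (33.3) were tested, 13647 in all and 3 of 3 members. The model, a mean for each of the 4 groups, used log2(signal + 16) from the 8 arrays and was fitted by limma 3.58.1 in R 4.3.3 (lmFit, then eBayes with a trend), with 4 residual degrees of freedom and 4.34 prior ones. All p-values are two-sided, and Benjamini-Hochberg adjustment ran over every tested probe set, with 0.05 as the threshold. The fit was tested on simulated data. Figures used matplotlib 3.10.9.

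Groups and numbers came from sample titles. Names came from the probe table, updated to TAIR10.1 gene records, which covers 16 of the 109 genes in 7 lists; no coordinates and no sequences are given. Members and lists were chosen with earlier results of these data known. Named beside them were the 5 nearest profiles of each member, the 5 largest shoot gaps each way, and list genes that were called or serve as examples. Alternatives covered the pseudocount, quantile normalization, the filter, eBayes options, a replicate block, fewer arrays, Bonferroni adjustment and each array left out.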

Additional observations from a re-analysis of the deposited data

Results flagged for a closer look

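The gap of MLS between the arrays numbered 1 and 2 ran one way in both root pairs and the other way in both shoot pairs. It was -0.34 in nitrate roots and -0.56 in KCl roots, against 1.88 in nitrate shoots and 2.11 in KCl shoots (log2(signal + 16)). The difference between the organs was not tested. All 4 root signals were at or below 10.8.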

How the results depend on the processing

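No member was called for nitrate, or for the difference of responses between organs, in any setting. These were 176 results, counted over members, contrasts and settings with the planned fit included. The uncalled PCK1 difference in roots changed sign at a pseudocount of 64 (-0.00049) and with quantile normalization (-0.045), and for roots minus shoots in response MLS did so at a pseudocount of 1 (0.18) and PCK1 with quantile normalization (-0.032). By Bonferroni, a stricter threshold, MLS (-2.96 in KCl, -3.32 after nitrate) and PCK1 (-1.39 and -1.21) were no longer called between organs. The mean MLS gap was -1.55 in roots and 2.19 in shoots at a pseudocount of 1, and -0.14 and 1.58 at 64, and the PCK1 shoot gap 0.32 with quantile normalization.

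With 1 array left out, nitrate minus KCl in roots ran from -1.59 to 1.06 for ICL, -0.096 to 0.46 for MLS and -0.36 to 0.36 for PCK1, and in shoots from -2.42 to 2.86, -0.52 to 1.60 and -0.64 to 0.29. Root minus shoot response ran from -3.12 to 2.15, -1.42 to 0.70 and -0.29 to 0.64. Roots minus shoots ran in KCl from -4.01 to 1.27, -4.02 to -1.90 and -1.85 to -0.92, and after nitrate from -4.03 to 0.32, -4.26 to -2.38 and -1.45 to -0.97. ICL changed sign between organs without the first shoot array. The cause was not tested.

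The numbers share no stated source, and same-numbered arrays deviated together (correlations across probe sets of 0.207 to 0.665 for 6 pairs of groups). With a replicate block within each organ, ICL was called between organs at -1.37 in KCl (limma, adjusted p = 0.0018) and -1.85 after nitrate (0.000234). A block shared by both organs called it in neither (0.171 and 0.0747). Blocking within organs takes the gap between numbers out of the error (SE of ICL 0.277, against 1.83 without a block). Its p-values between organs thus do not cover that gap. The block within organs called 7620 probe sets in KCl, against 5153 without it, and 7554 after nitrate, against 5213. Over all probe sets that block within organs raised the calls to 517 against 155 for nitrate in roots, 82 against 13 in shoots and 80 against 2 for the difference of responses; the shared block gave 264, 36 and 6. With only the arrays compared 328 and 1 were called in roots and shoots, and at a pseudocount of 64 the difference of responses gave 20. With 1 array left out the counts were 32 to 184, 7 to 25 and 0 to 1. Bonferroni left 27, 6 and 1, and 824 of 5153 in KCl and 840 of 5213 after nitrate between organs.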
